A study of Bos taurus with 8 samples.

Results

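ARL6IP4, LOC100125266, HN1, RALY, TSPAN17 and UPP1 are 6 genes outside the classical insulin pathways whose RNA ranked among the largest increases with insulin in bovine blastocysts. They are 6 of the 15229 gene symbols in the array's annotation. The members are all probes whose gene symbol in the platform annotation equals 1 of these 6 names, which gave 11 of the 43794 bovine probes on the array. HN1 and UPP1 had 3 probes each, RALY had 2, and ARL6IP4, LOC100125266 and TSPAN17 had 1 each. All 11 passed the detection filter, as did 29384 probes in all. The genes were picked from their log2 ratios of insulin over control in these same arrays, so those ratios are given below as a description. Genes were ranked at their brightest probe. Only those called higher by limma (adjusted p under 0.05) and above 0 on every array of the comparison were ranked. Positive signs on those arrays thus came with the choice. ARL6IP4, LOC100125266, RALY and HN1 stood among the 10 largest increases for the mean of both doses, TSPAN17 at the low dose and UPP1 at the high dose. The smallest of these 10 for the mean of both doses was HN1 at a log2 ratio of 0.98, and the next gene, HDLBP, was just outside at 0.97. At the low dose TSPAN17 had 1.05, the last gene inside was GPAA1 at 0.94 and the first outside DTYMK at 0.92. RALY, at 1.04 by its brightest probe, was not called at the low dose and so was not ranked there. At the high dose UPP1 had 1.15, and ARPC1B inside and DHX38 outside were both at 1.14.

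The study measured RNA of bovine blastocysts grown in vitro from slaughterhouse oocytes. Bovine insulin was present only in the maturation medium of the oocytes, at 0.1 µg/ml (INS0.1) or 10 µg/ml (INS10), and the control medium had none. All groups shared the same route of in vitro maturation, fertilisation and culture, so no embryo grown in vivo is in the comparison. On each of 8 arrays, RNA of an insulin group and of the control were hybridised together in different dyes. There were 4 arrays per dose, and insulin RNA was in Cy5 on replicates 1 and 2 and in Cy3 on replicates 3 and 4. The labels call the samples biological replicates and do not say how many embryos were pooled in each, nor whether arrays with the same replicate number carried the same control RNA.

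Insulin is a common supplement of maturation media, where it acts on the cumulus cells and the oocyte through the insulin and IGF1 receptors. The 6 genes work elsewhere in the cell. ARL6IP4 encodes a nuclear protein rich in serine and arginine, also called SRp25, which binds the small GTPase ARL6 and takes part in the choice of splice sites. RALY encodes an RNA-binding protein of the hnRNP C type, and in the mouse its deletion is part of the lethal yellow allele of agouti. HN1, now named JPT1, is the mammalian relative of the Drosophila microtubule protein Jupiter. TSPAN17 is a membrane protein of the TspanC8 tetraspanins, which in human and mouse cells carry the protease ADAM10 to the surface. UPP1 is uridine phosphorylase, which splits uridine into uracil and ribose 1-phosphate in pyrimidine salvage. For LOC100125266, RefSeq (assembly ARS-UCD2.0) lists a protein-coding gene with the synonym IAP and no description, and no role is assigned to it here. No probe, transcript, promoter or protein sequence was used here.

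The median probe intensity of an array was 163 to 255 for Cy5 and 234 to 348 for Cy3, with a median background of 31 to 47. The number of arrays limits the precision. Markers of the blastocyst were present: all 7 measured trophectoderm markers, among them CDX2, GATA3, KRT8 and KRT18, and POU5F1, NANOG and SOX2 of the inner cell mass passed the detection filter. Of the markers of other cells, 4 of 7 cumulus and granulosa genes, 2 of 7 oocyte genes and 2 of 4 sperm genes passed it. In these lists 1 of 4 inner cell mass markers, SOX2, rose with insulin (log2 0.69, limma adjusted p = 0.0042), while NANOG was at 0.28, POU5F1 at 0.01 and DPPA4 at −0.08. By limma 0 trophectoderm and hypoblast markers passed, also at an unadjusted p under 0.05, and the sperm gene PRM1 fell (log2 −0.64, adjusted p = 0.00439), and the cumulus and oocyte medians were −0.11 and −0.14. Their part in the results on the 6 genes was not tested. INS0.1 replicate 1 stood apart: the median log2 ratio of the 6 genes, at their brightest probes, was 0.30 there and 0.75 to 1.38 on the other 7 arrays.

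**Figure D1:**
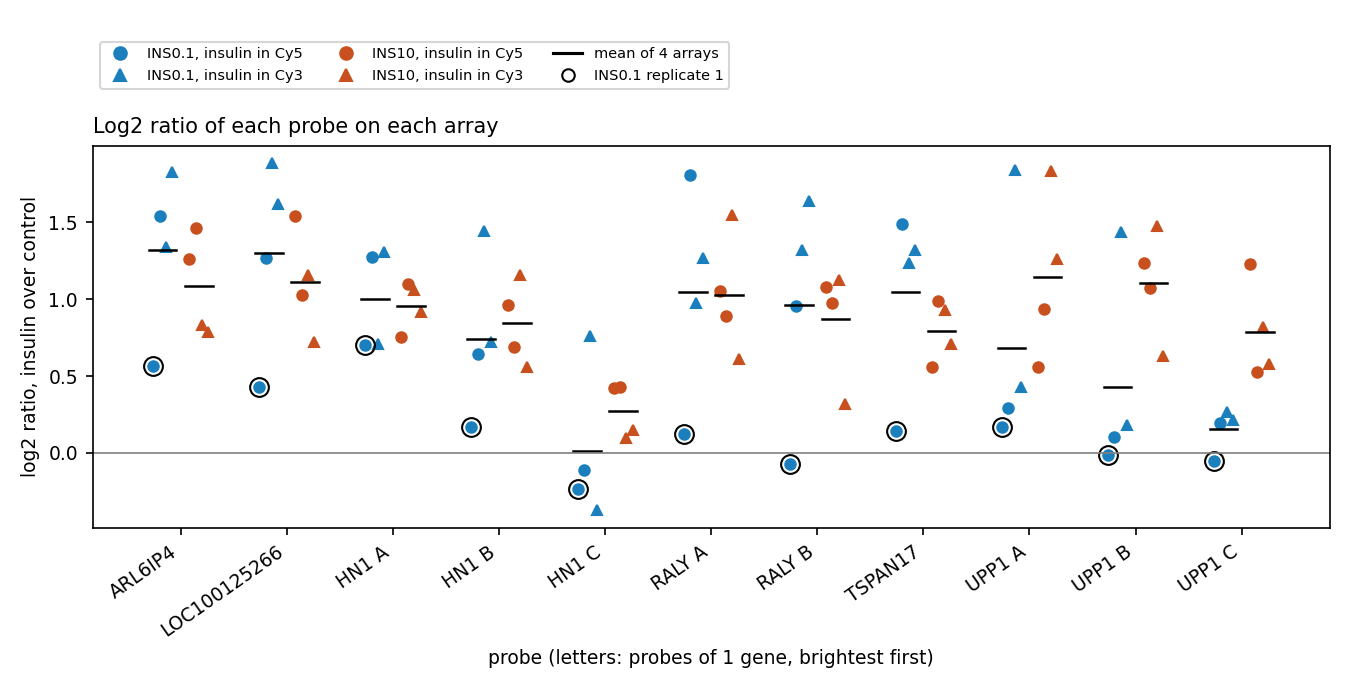
Log2 ratio of insulin over control (vertical axis) of all 11 probes of the 6 genes on each of the 8 arrays. Blue stands for INS0.1 and orange for INS10, circles for insulin in Cy5 and triangles for insulin in Cy3, and bars for the mean of 4 arrays. The circled points of INS0.1 replicate 1 are the lowest INS0.1 value of each probe except HN1 C, and 3 of the 4 INS0.1 points of HN1 C lie below 0.

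ARL6IP4, the splicing-related nuclear protein, had log2 ratios of 0.56, 1.54, 1.34 and 1.83 on INS0.1 replicates 1 to 4, and of 1.26, 1.46, 0.83 and 0.78 on INS10 replicates 1 to 4. All 8 ratios were above 0, which the ranking required, and the values of both doses overlapped. Its mean was 1.32 ± 0.54 (SD, n = 4) at INS0.1 and 1.08 ± 0.33 (SD, n = 4) at INS10, a 2.30-fold ratio for both doses averaged. In RNA of whole embryos, more cells of a type and more RNA per cell cannot be told apart. Without INS0.1 replicate 1 the low-dose mean was 1.57 ± 0.24 (SD). On the median array 99.5% of all kept probes had a lower ratio than ARL6IP4, and on INS0.1 replicate 1 that share was 93.3%.

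RALY, the hnRNP protein, was read by 2 probes, named A and B in order of falling intensity. Probe A lay at 0.12, 1.81, 0.98 and 1.27 on INS0.1 replicates 1 to 4 and at 1.05, 0.89, 1.55 and 0.61 on the INS10 arrays. Probe B lay at −0.07, 0.96, 1.32 and 1.64 and at 1.08, 0.97, 1.12 and 0.31. Both probes were near 0 on INS0.1 replicate 1 and above 0 on every other array. For probe A the ranking required a ratio above 0 on every array. The low-dose means were 1.04 ± 0.70 and 0.96 ± 0.74 (SD, n = 4) and became 1.35 ± 0.42 and 1.30 ± 0.34 (SD) without that array. At INS10 they were 1.03 ± 0.39 and 0.87 ± 0.38 (SD, n = 4). Probe A exceeded probe B on 4 of 8 arrays, by 0.12 ± 0.41 (SD, n = 8) on average, a difference smaller than its spread.

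TSPAN17, the membrane protein of the set, had ratios of 0.14, 1.49, 1.24 and 1.32 on INS0.1 replicates 1 to 4 and of 0.56, 0.99, 0.93 and 0.71 on INS10 replicates 1 to 4. Leaving out INS0.1 replicate 1, the other 3 low-dose ratios all lay above the highest INS10 ratio. TSPAN17 was chosen at the low dose, and nothing is read from that order. The mean was 1.05 ± 0.61 (SD, n = 4) at INS0.1, or 1.35 ± 0.13 (SD) without replicate 1, and 0.80 ± 0.20 (SD, n = 4) at INS10. The residual SD of its fit was 0.471 log2 units on all arrays and 0.190 without INS0.1 replicate 1. The median over all kept probes on the same 7 arrays was 0.302. As the array left out held the lowest TSPAN17 ratio, the smaller SD without it is no separate result.

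LOC100125266 had ratios of 0.43, 1.27, 1.89 and 1.62 at INS0.1 and of 1.54, 1.03, 1.16 and 0.72 at INS10. All 8 were above 0, which the ranking required, and both doses overlapped, with means of 1.30 ± 0.64 and 1.11 ± 0.34 (SD, n = 4). Without INS0.1 replicate 1 the low-dose mean was 1.59 ± 0.31 (SD). Its raw median intensities were 3095 to 11595 in the control channel and 5246 to 38066 in the insulin channel. Background around its spots ranged from 43 to 263.

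HN1 was read by 3 probes that did not give 1 answer. Probe A, the brightest, lay at 0.70, 1.27, 0.71 and 1.31 on INS0.1 replicates 1 to 4 and at 0.75, 1.10, 1.06 and 0.92 on the INS10 arrays, the narrowest range among the brightest probes of the 6 genes. Probe B lay at 0.17, 0.64, 1.44 and 0.72 and at 0.96, 0.69, 1.16 and 0.56. Probe C lay at −0.24, −0.11, 0.76 and −0.37 and at 0.42, 0.43, 0.10 and 0.15. Thus A and B were above 0 on 8 of 8 arrays and C on 5 of 8. For A, the brightest probe, the ranking required this. The mean fold was 1.97 for A, 1.73 for B and 1.10 for C. The low-dose mean log2 ratios were 0.999 for A, 0.74 for B and 0.01 for C, and 1.10, 0.93 and 0.09 without INS0.1 replicate 1.

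The order of the HN1 probes also changed from array to array. A exceeded B on 5 of 8 arrays, by −0.73 to 0.63, and exceeded C on 7 of 8, by −0.05 to 1.68. B exceeded C on 8 of 8 arrays, by 0.26 to 1.09. On INS0.1 replicate 3 probe A was at its second lowest value, whereas B and C were both at their highest. Raw intensities of A were 14207 to 49458, those of B 360 to 1466 and those of C 374 to 818, and all 3 were above the negative controls in 16 of 16 readings. Which transcript or exon each probe matches was not analysed here.

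UPP1, the salvage enzyme, was read by 3 probes. Probe A lay at 0.17, 0.29, 1.84 and 0.43 on INS0.1 replicates 1 to 4 and at 0.56, 0.93, 1.83 and 1.26 on INS10 replicates 1 to 4. Probe B lay at −0.02, 0.10, 1.43 and 0.18 and at 1.24, 1.07, 1.48 and 0.63. Both had 1 high low-dose array, replicate 3, and 3 low ones. Their low-dose means were 0.68 ± 0.78 and 0.43 ± 0.68 (SD, n = 4). Without INS0.1 replicate 3 the fitted low-dose ratio was 0.39 for A and 0.09 for B.

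Probe C of UPP1 did not show that array as high. It lay at −0.06, 0.20, 0.27 and 0.21 at INS0.1 and at 1.23, 0.53, 0.82 and 0.58 at INS10, so all its high-dose ratios exceeded all its low-dose ones, as was the case for 0.579% of kept probes. UPP1 was chosen at the high dose, and nothing is read from that order. Probe C was dim, with raw intensities of 156 to 417, and passed the level of the negative controls in 10 of 16 readings, 6 in the insulin and 4 in the control channel. At INS10 the means of A, B and C were 1.15 ± 0.54, 1.10 ± 0.36 and 0.79 ± 0.32 (SD, n = 4).

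The genes were chosen on these contrasts, so the calls of the limma fit on them are no test of the choice, and nothing is read from their counts. At an adjusted p under 0.05 for higher expression, 10 of the 11 probes, all but HN1 C, were called for the mean of both doses, where 1.48% of all kept probes were. At INS0.1 ARL6IP4, LOC100125266, HN1 A and TSPAN17 were called (0.105% of all kept probes), and at INS10 8 of 11, not HN1 C, RALY B or TSPAN17 (0.419%). The comparisons of both doses with the control may also share control RNA.

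**Figure D2:**
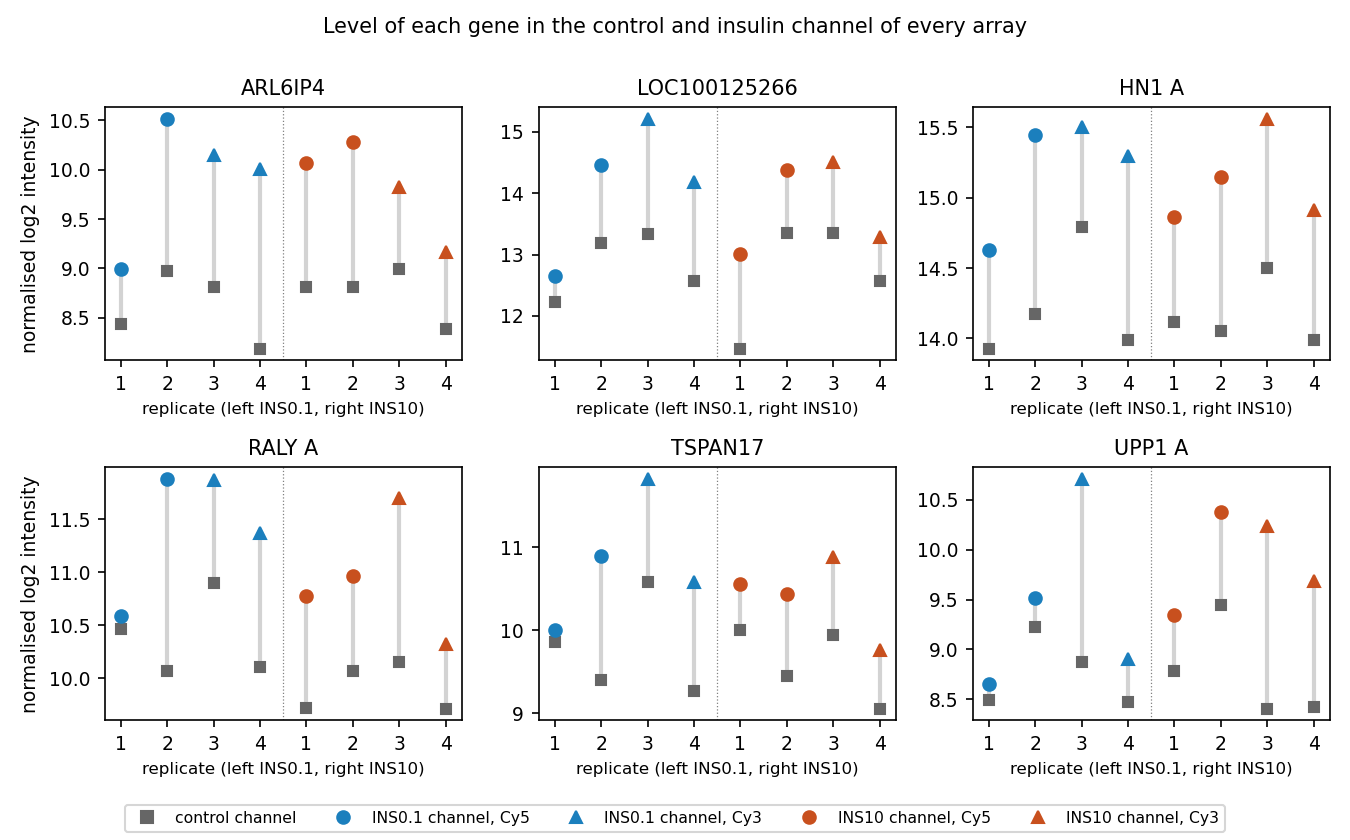
Normalised log2 intensity (vertical axes) of the brightest probe of each gene in the control channel (grey squares) and in the insulin channel (blue for INS0.1, orange for INS10; circles for Cy5, triangles for Cy3) of each array, with replicates on the horizontal axis. The grey line joins both channels of 1 array. Its length at INS0.1 replicate 1 is short for RALY A, TSPAN17 and UPP1 A, and the control squares of LOC100125266 lie lowest on both arrays of replicate 1.

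The level in each channel was then set out per gene, on the scale of log2 intensity after quantile normalisation of mean intensities between arrays. ARL6IP4 had 8.68 ± 0.29 (SD over 4 replicate numbers) in the control, 9.92 ± 0.65 (SD, n = 4) at INS0.1 and 9.84 ± 0.48 (SD, n = 4) at INS10. All its insulin readings, from 8.998 to 10.52, lay above all its control readings, which ended at 8.995, though with INS0.1 replicate 1 almost at that bound. The ranking required a ratio above 0 on every array, which favours such a separation. The share of all kept probes with such a separation was not computed, and nothing is read from it. For the brightest probes of the other 5 genes the insulin and control ranges overlapped. LOC100125266, for example, spanned 11.46 to 13.35 in the control and 12.66 to 15.21 with insulin.

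Control levels also differed between replicate numbers within a dye. In the control channel LOC100125266 was at 11.84 for replicate 1 and 13.27 for replicate 2, both in Cy3, a gap of 1.43 log2 units or 2.69-fold. This gap was larger than that of 99.0% of kept probes, whose median was 0.36. The 2 arrays of replicate 1 differed by 0.77 in that channel. TSPAN17 control levels differed by 1.11 between replicates 3 and 4, both in Cy5 (10.27 against 9.16, 2.15-fold), which was more than for 97.5% of kept probes. HN1 C had the smallest gap of the 11 probes, 0.11. The labels do not give the number or the stage of the embryos per replicate.

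**Figure D3:**
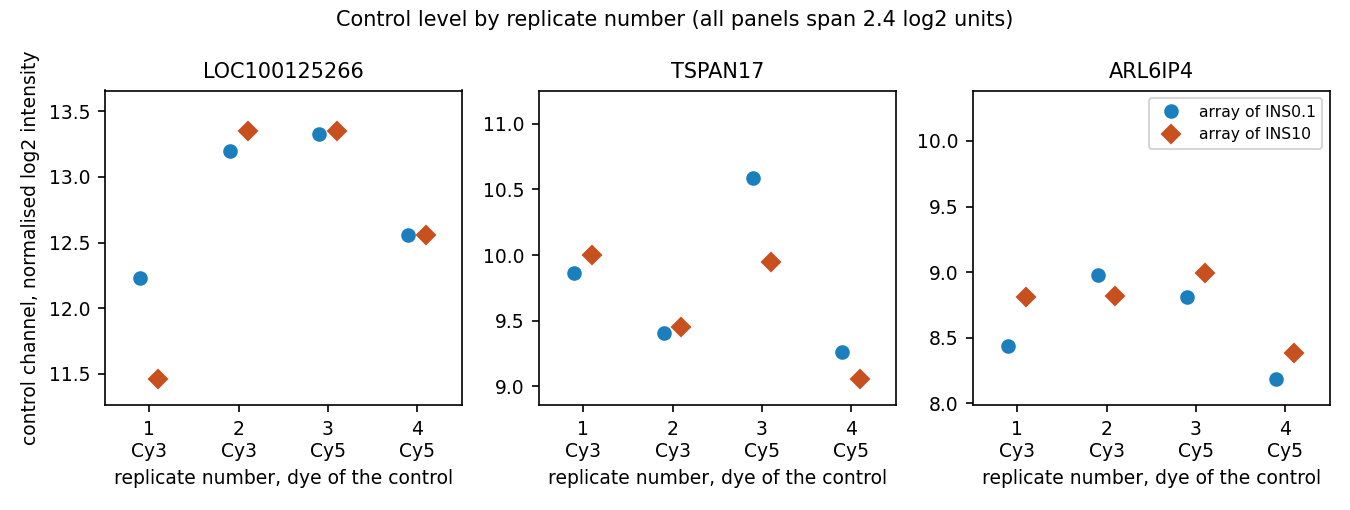
Control-channel level (normalised log2 intensity, vertical axes, each spanning 2.4 units) of LOC100125266, TSPAN17 and ARL6IP4 by replicate number, with the dye of the control under the number. Circles are the INS0.1 arrays and diamonds the INS10 arrays. LOC100125266 is lowest for replicate 1 on both, and TSPAN17 is lower for replicate 4 than for replicate 3 on both.

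For most of the 11 probes the ratios were more variable than those of most kept probes, with HN1 A and UPP1 C as exceptions. The residual SD of the fit was 0.491 for ARL6IP4, 0.529 for LOC100125266, 0.620 for RALY A and 0.499 for UPP1 A, against a median of 0.311 over all kept probes. Of the 11 probes, 9 lay above 75% of kept probes in this respect. Without INS0.1 replicate 1 there were 5, namely HN1 C, RALY A, RALY B, UPP1 A and UPP1 B, and ARL6IP4 dropped to 0.266. That array was the lowest for the brightest probe of each gene, so a smaller spread without it is no separate result. HN1 A and UPP1 C had residual SDs of 0.287 and 0.271, below the median.

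The next comparison asked whether the high dose differed from the low dose. It is another contrast than the one for the mean of both doses. ARL6IP4, LOC100125266 and HN1 also stood among the 10 largest ranked increases at INS0.1, so for them it is not fully independent of the choice. By limma no probe of ARL6IP4, LOC100125266, HN1 or RALY passed an adjusted p of 0.05 or an unadjusted p of 0.05. Of all 29384 kept probes 0 passed after adjustment (0%), and 845 had an unadjusted p under 0.05 (2.88%). INS10 minus INS0.1 was −0.23 for ARL6IP4 (SE 0.26, adjusted p = 0.9999, 95% interval −0.78 to 0.31) and −0.19 for LOC100125266 (SE 0.27, adjusted p = 0.9999, −0.75 to 0.38). It was −0.02 for RALY A (SE 0.29, −0.63 to 0.59) and −0.09 for RALY B (SE 0.29, −0.69 to 0.52). For HN1 A it was −0.04 (SE 0.22, −0.51 to 0.42), for B 0.10 (SE 0.24, −0.41 to 0.61) and for C 0.26 (SE 0.25, −0.25 to 0.78).

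Each of these intervals holds differences in both directions, so equal ratios at both doses were not shown. Without INS0.1 replicate 1 the difference was −0.54 for ARL6IP4 (SE 0.24, limma unadjusted p = 0.0381) and −0.48 for LOC100125266 (SE 0.26). It was −0.36 for RALY A (SE 0.27) and −0.15 for HN1 A (SE 0.24), and none passed after adjustment by limma. The array left out held the lowest ratio of each of these probes, so the lower differences without it are no separate result. In that setting 1265 of the 29384 kept probes had a limma unadjusted p under 0.05. Without INS0.1 replicate 3 the difference of HN1 C was 0.56 (SE 0.23, limma unadjusted p = 0.0246) and that of HN1 B 0.31 (SE 0.25). Both probes had their highest ratio on that array, so the larger differences without it are no separate result either. There 817 of the 29384 kept probes had a limma unadjusted p under 0.05. Leaving out each array in turn, the differences ran from −0.54 to −0.03 for ARL6IP4, from −0.48 to 0.03 for LOC100125266, from −0.36 to 0.31 for RALY A and from −0.17 to 0.07 for HN1 A. TSPAN17 and UPP1 were each chosen at 1 dose, and their differences are given with no test. TSPAN17 differed by −0.25 (SE 0.26), or by −0.56 (SE 0.23) without INS0.1 replicate 1. UPP1 A, B and C differed by 0.46 (SE 0.27), 0.68 (SE 0.28) and 0.63 (SE 0.22), with all 3 probes higher at INS10. For UPP1 A the difference was 0.19 without INS0.1 replicate 4 and 0.76 without INS0.1 replicate 3, and for UPP1 B it was 1.01 without INS0.1 replicate 3.

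**Figure D4:**
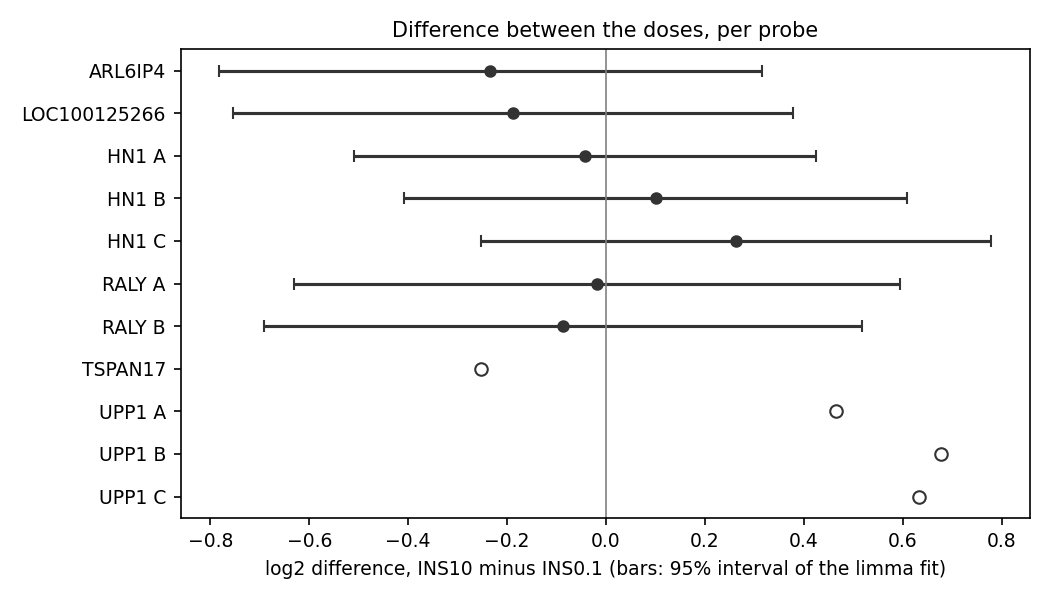
Difference in log2 ratio between the doses (INS10 minus INS0.1, horizontal axis) of each of the 11 probes over 8 arrays. Filled points have the 95% interval of the limma fit, and open points, TSPAN17 and UPP1, were chosen at 1 dose and have none. All 7 intervals include 0, and the 3 UPP1 probes lie at 0.46 to 0.68.

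Dye orientation was not the contrast that chose the genes, but the choice was not free of it. The ranking required ratios above 0 in both dye orientations, which limits the dye effect a chosen gene can have. Nothing is therefore read from the count of dye effects among the 11 probes. Of all kept probes, 5.23% had a dye effect at an adjusted p under 0.05, and 0 of the 11 probes did. The largest was that of UPP1 A (−0.43, SE 0.13, limma adjusted p = 0.0646), the 1 probe of the set with an unadjusted p under 0.05 (0.00414). UPP1 A had a mean log2 ratio of 0.49 on the arrays with insulin in Cy5 and of 1.34 on those with insulin in Cy3, where INS0.1 replicate 3 belongs. Its dye effect passed the threshold under median centring in place of loess (adjusted p = 0.0488) and without INS0.1 replicate 4 (adjusted p = 0.0208). ARL6IP4 had 1.205 in Cy5 and 1.195 in Cy3, and HN1 A had 0.96 and 0.9987, dye effects smaller than their SE.

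Over the 8 arrays the ratios of the 6 genes followed each other to different degrees. As a description, with arrays that may share control RNA, Pearson's r between brightest probes was 0.798 for RALY and TSPAN17, 0.793 for ARL6IP4 and TSPAN17 and 0.728 for ARL6IP4 and LOC100125266. For UPP1 with each of the others r ran from −0.22 to 0.28. INS0.1 replicate 1, the lowest array for the brightest probe of all 6 genes, enters each of these values.

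The genes whose ratios over the 8 arrays were most like each of the 6 were named by Pearson's r among 11717 other genes. They were RFX4, MAN2B1, GTF2F1, DPF2 and FBXO18 for ARL6IP4 (r = 0.936 to 0.962), SIGIRR, LOC100126053, NDUFS8, LOC100300938 and LOC787187 for LOC100125266 (0.936 to 0.954), and DFNB59, ELAC2, ADD1, LRIG3 and ZAP70 for HN1 (0.923 to 0.941). For RALY they were MTA3, PRODH, CXCR3, NOL12 and OTP (0.923 to 0.961), for TSPAN17 ZNF74, TNRC6A, NOL12, IL27RA and MRPL21 (0.943 to 0.974), and for UPP1 RNLS, HOMER2, NUDT1, SLC48A1 and LOC614269 (0.947 to 0.978). NOL12, a nucleolar RNA-binding protein gene, was on the lists of both RALY and TSPAN17. A like pattern was not a like level of change: RFX4 averaged −0.16 over both doses and RNLS −0.46, while MAN2B1, a lysosomal mannosidase gene, averaged 0.84. Of all genes compared, 1.74% to 4.71% had r above 0.7 with a given member. The named genes have the highest of 11717 values over only 8 arrays, and they were not tested against chance. INS0.1 replicate 1 enters each of these values too.

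The genes next to each member in the genome were read as well, by the gene order of ARS-UCD2.0. None of the 12 nearest measured neighbours, 1 on each side, passed the limma test for the mean of both doses, where 2.12% of named genes were called higher and 0.196% lower. CDK14 was the 1 neighbour with an unadjusted p under 0.05. ARL6IP4 lies on chromosome 17 next to OGFOD2, which was at log2 −0.03 (SE 0.11, adjusted p = 0.953), and CDK2AP1 on its other side was at −0.04. RALY on chromosome 13 lies next to the translation factor gene EIF2S2 at 0.05 (SE 0.11, adjusted p = 0.926), with CHMP4B at −0.12 on the other side. HN1 on chromosome 19 lies next to the nucleotidase gene NT5C at 0.15 (SE 0.11, adjusted p = 0.697), with NUP85 at 0.09 on the other side. TSPAN17 on chromosome 7 lies next to UNC5A at 0.20 (SE 0.12, adjusted p = 0.610), with GPRIN1 at 0.17 on the other side.

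LOC100125266 on chromosome 2 lies next to ALPI, the gene of intestinal alkaline phosphatase, whose probe exceeded the negative controls in 2 of 16 readings and did not pass the filter. The nearest measured genes around it were LOC528262 (−0.01) and CHRND (−0.0004). UPP1 lies on chromosome 4, where CDK14 had the smallest p of all 12 neighbours (0.36, SE 0.11, adjusted p = 0.126), with 6 genes between, and ZPBP on the other side was at −0.08.

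Relatives of the 6 genes were taken from 8 lists by family and pathway. Of 112 measured genes 2 were called higher and 0 lower for the mean of both doses by limma, a share of 1.79% against 2.12% higher among all 11718 named genes. The share of the lists was near the background. At an unadjusted p under 0.05 there were 18 of 112 (16.1%), against 11.8% of all named genes. Their genes were taken at the brightest probe. The median of all named genes was −0.01.

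Among the other TspanC8 tetraspanins and ADAM10, 0 of 5 measured genes passed the limma test, 1 of them with an unadjusted p under 0.05 (median log2 −0.09). TSPAN15 was at 0.37 (adjusted p = 0.106), ADAM10 at −0.17 (0.759), TSPAN33 at −0.19 (0.622) and TSPAN5 at −0.09 (0.874). Of 19 other tetraspanins 1 rose, and 8 had a limma unadjusted p under 0.05 (median 0.07), where 11.8% of all named genes had one. Of these 8, TSPAN1, TSPAN6, TSPAN7 and UPK1A lay below 0 and CD63, CD81, CD151 and ROM1 above 0. The list was not tested as a set. The 1 that rose was CD81, a tetraspanin of many cell surfaces, at 0.91 (SE 0.13, adjusted p = 0.000538) and above 0 on 7 of 8 arrays. Its second probe gave 0.81 (SE 0.16, adjusted p = 0.00805). CD63 was at 0.31 (adjusted p = 0.224), TSPAN6 at −0.39 (0.117) and TSPAN7 at −0.39 (0.192).

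Of 25 other genes of pyrimidine salvage, breakdown and synthesis, 1 rose, and 5 had an unadjusted p under 0.05 (median 0.02). The 1 that rose was DTYMK, thymidylate kinase, at 0.83 (SE 0.11, adjusted p = 0.000374) and above 0 on 8 of 8 arrays. As with HN1, its 5 kept probes did not give 1 answer: the other 4 lay at 0.53, 0.48, −0.04 and −0.0014, of which the first passed the test (adjusted p = 0.0238). UPP2, named for its role and not for its p, the second uridine phosphorylase gene, was at 0.08 (adjusted p = 0.884), and the uridine kinase genes UCK1 and UCK2, named likewise, were at 0.17 and 0.11 (0.714 and 0.833). CAD, an enzyme of pyrimidine synthesis, was at 0.40 (adjusted p = 0.0935), DUT at 0.34 (0.169) and TK2 at −0.30 (0.266). Of 6 nucleoside transporter genes 0 passed the limma test, and 0 had an unadjusted p under 0.05 (median 0.13), with SLC29A3 at 0.19 (0.592), SLC28A3 at −0.27 (0.6098), SLC29A4 at 0.14 (0.715) and SLC28A1 at 0.14 (0.8002).

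**Figure D5:**
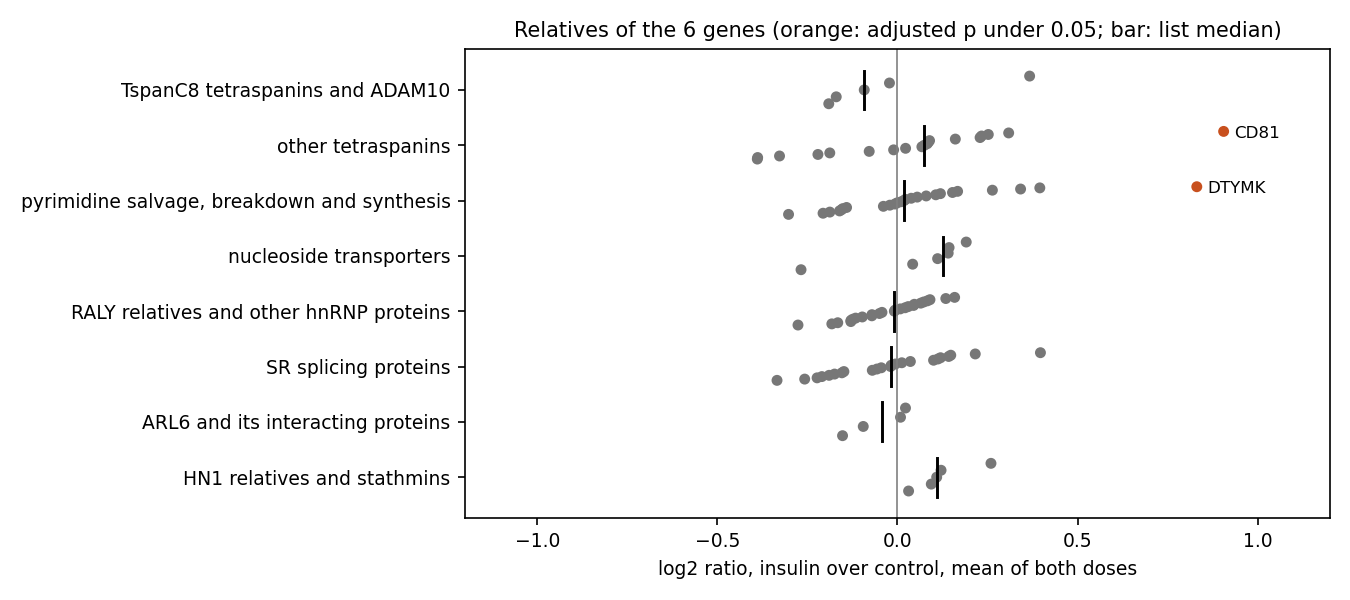
Log2 ratio of insulin over control, mean of both doses (horizontal axis), of the measured genes of 8 lists of relatives, 1 point a gene, with the list median as a black bar. Orange points, CD81 and DTYMK, have a limma adjusted p under 0.05, and the medians of all lists lie between −0.09 and 0.13.

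For RALY, 0 of 25 measured hnRNP genes passed the limma test, and 1 had an unadjusted p under 0.05 (median −0.01). It was HNRNPF at −0.28 (adjusted p = 0.306), followed by HNRNPUL2 at −0.18 (0.648), PTBP1 at 0.16 (0.687) and HNRNPL at −0.17 (0.692). HNRNPC and RALYL, the closest relatives of RALY and named for that, were at −0.01 (0.992) and −0.13 (0.756). For ARL6IP4, 0 of 23 genes of SR splicing proteins and their kinases passed, 2 with an unadjusted p under 0.05 (median −0.02). SRRM2 was at 0.40 (adjusted p = 0.108), the kinase gene SRPK2 at −0.33 (0.203), SRRM1 at −0.26 (0.491) and SRSF9 at 0.22 (0.555).

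Of ARL6 and the genes of its other interacting proteins, 0 of 4 passed the limma test and 0 had an unadjusted p under 0.05 (median −0.04). ARL6 itself was at −0.15 (adjusted p = 0.717), ARL6IP6 at −0.09, ARL6IP1 at 0.02 and ARL6IP5 at 0.01. Of HN1L and 4 stathmin genes 0 passed, 1 with an unadjusted p under 0.05 (median 0.11). Stathmins bind tubulin, and STMN3 was at 0.26 (adjusted p = 0.414), STMN4 at 0.11 (0.802), STMN1 at 0.09 (0.8497) and STMN2 at 0.12 (0.857). HN1L, the nearest relative of HN1, was at 0.03 (0.966).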

How the data were processed

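RNA of blastocysts was amplified in 2 rounds and labelled with Cy3 or Cy5 on guanine bases, per the labels' protocols; both steps can alter ratios. The deposited scanner tables hold median intensities of spot and background in both channels, per the file headers. What software read the scans is not given in the sources used here. The authors' own log2 ratios came as 1 further deposited table whose steps are not stated. Its columns correlated at 0.985 to 0.997 with the ratios computed here, and its medians were −0.02 to 0.01. The correlations settle the direction but not the base or scaling. It served as an alternative.

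Intensities were corrected with normexp (offset 50) and normalised by loess, with 1418 control spots (8 spots with no name left out) and 139 ignored probe spots given no weight. Probes above the mean plus 2 SD of 153 negative controls in at least 4 of 16 readings were kept. Levels per channel used Aquantile normalisation after loess. The model, fitted in limma 3.58.1 (R 4.3.3), had 1 effect per dose and 1 dye effect over 8 arrays, and Benjamini-Hochberg adjustment over all kept probes at 0.05. The fit was tested on simulated data whose arrays were independent. That test does not cover arrays that share control RNA or an array that stands apart. The dye effect also takes up any difference between replicates 1 and 2 and replicates 3 and 4. For relatives and neighbours the brightest kept probe stood for a gene. Named were all member probes, up to 4 genes of each list of relatives by p and those called, the 5 most alike genes and the nearest neighbours. The members and lists were chosen with earlier results of these data known. Cell marker lists were trophectoderm, inner cell mass, hypoblast (3 measured, none called), cumulus and granulosa, oocyte and sperm genes. Deviations of arrays with the same replicate number from the dose mean correlated at 0.221 to 0.312 across kept probes. They still held the dye effect, which arrays of 1 number share at both doses, so they cannot show pairing. The difference between control replicates 1 and 2 on the INS0.1 arrays correlated at 0.499 with that on the INS10 arrays. In the insulin channel this correlation was 0.212. From the control channel the numbers were taken to pair the arrays, and a fit with the number as a block was an alternative. Its consensus correlation within a number, fitted after the dose and dye effects, was −0.04. Other alternatives were background correction, normalisation, dye term, probe filter, variance estimate, single doses and leaving out each array.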

Additional observations from a re-analysis of the deposited data

Results flagged for a closer look

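Among 55 groups of 4 or 8 values examined for a value far from the rest, 2 had one, and chance gives about 1 in 20. Both were UPP1 at the low dose. On INS0.1 replicate 3 the log2 ratio of UPP1 A was 1.84, while the other 3 INS0.1 arrays lay between 0.17 and 0.43. On the same array UPP1 B had 1.43, while the others lay between −0.02 and 0.18. The third UPP1 probe had 0.27 there.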

How the results depend on the processing

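Of 613 alternative values for the ratios of the 6 genes, 4 had another sign, all of HN1 C and from −0.28 to −0.0047, among them the mean of both doses without INS0.1 replicate 3. Apart from HN1 C, the ratios that moved by over 1.5 times were at INS0.1: without replicate 3 of that dose UPP1 A went from 0.68 to 0.39 and UPP1 B from 0.43 to 0.09, and without replicate 1 UPP1 C went from 0.16 to 0.24. Counts of called probes moved too. Of 29384 probes, 484 were called for the mean of both doses, 32 at INS0.1, 128 at INS10, 0 between the doses and 1538 for the dye effect. INS0.1 calls were 2 with normexp offset 16, 9 without background correction, 8 with median centring, 0 with no dye term (1534 at an unadjusted p under 0.05), 58 if every reading had to be detected, and 0 with each dose fitted alone (2505 unadjusted). INS10 calls were 0 with offset 16 (1885 unadjusted), 0 with no dye term (1360 unadjusted) and 297 with each dose fitted alone. With no dye term 262 probes were called for the mean of both doses. Dye calls were 2486 without the filter and 453 if every reading had to be detected. Beyond the lower number of probes under the strict filter, the cause was not tested. Taking the mean of all kept probes of a gene, 1 relative was called in place of 2.

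Leaving out each array in turn gave 275 to 605 calls for the mean of both doses, 0 to 218 at INS0.1, 0 to 199 at INS10, 0 to 0 between the doses, 666 to 1080 for the dye effect and 2 to 2 relatives. Leaving out INS0.1 replicate 1 gave 218 calls at INS0.1 and 199 at INS10. Leaving out INS0.1 replicate 2 gave 0 at INS0.1 and 312 for the mean, and replicate 3 of that dose gave 0 and 275. With INS0.1 replicate 4 removed there was 1 call at INS0.1. Removal of INS10 replicate 1 gave 0 at INS10 and 290 for the mean, and of replicate 2 of that dose 8 at INS0.1, 0 at INS10 and 285 for the mean. Removal of INS10 replicate 3 gave 8 at INS0.1 and 0 at INS10. For the dye effect every removal gave fewer calls than all arrays. With the replicate block there were 538, 26, 133, 0 and 1775 calls and 2 called relatives, and the block changed no other call that was recomputed. A fit of each dose alone gives no value for the mean, the dose difference or the dye effect. The number of arrays, and for UPP1 C the low signal over background, limit the precision.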
